A study of Mus musculus with 10 samples.

Results

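The loci of 4 genes for neural transcription factors, Pax6, Sox1, Otx2 and Olig2, were examined for H3K4me3 and H3K27me3 in mouse embryonic stem cells with and without BAF250a. A locus was a window of the mm9 genome: chromosome 2, 105490000 to 105550000 for Pax6, chromosome 8, 12380000 to 12415000 for Sox1, chromosome 14, 49260000 to 49305000 for Otx2, and chromosome 16, 91210000 to 91245000 for Olig2. Every enriched interval (island) that overlapped a window by 1 bp or more was a member, which gave 47 of the 84243 islands in the 4 ChIP lists. These were 8 H3K4me3 islands in WT and 13 in KO, and 12 H3K27me3 islands in WT and 14 in KO.

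All samples were stem cells of strain 129/C57BL/6 kept on mouse embryonic fibroblast feeders with LIF and serum. BAF250a is a DNA-binding subunit of the BAF (SWI/SNF) nucleosome remodelling complex. KO cells, labelled BAF250a Knockout, received 1 µM 4-OH tamoxifen for 36 hours, begun 4 hours after passage, and ethanol took the place of the drug in WT cells, so loss of BAF250a and exposure to tamoxifen cannot be told apart. Each mark had 1 library per genotype, so no difference below could be set against a spread between replicates and no p-value between genotypes was computed. The labels do not say whether feeder cells were removed, and a share of feeder chromatin in each library was not tested.

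H3K4me3 is deposited at active and poised promoters, mostly those rich in CpG. H3K27me3 is deposited by Polycomb repressive complex 2 and accompanies silencing. In embryonic stem cells many genes for developmental regulators carry both marks, a state called bivalent, and are held at low expression while remaining inducible. Otx2 is a homeodomain factor of the epiblast and the anterior neural plate. Sox1 is an HMG-box factor of the early neuroectoderm, Pax6 a paired-domain factor of neural progenitors and the eye, and Olig2 a basic helix-loop-helix factor of motor neuron and oligodendrocyte progenitors. A locus was called bivalent here when an H3K4me3 and an H3K27me3 island of the same genotype overlapped by 1 bp or more.

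The promoters are shown because both marks are known to meet at promoters rich in CpG. The 250 bases upstream of the outermost RefSeq start of each gene (build GRCm38.p6) are given 5′ to 3′ on the strand of the gene, with each CG in capitals. They lie at chr14:48667645-48667894 (minus strand) for Otx2, chr8:12395269-12395518 (plus) for Sox1, chr2:105668646-105668895 (plus) for Pax6 and chr16:91225300-91225549 (plus) for Olig2. That build is not the build of the islands, and the promoters were not placed on the mm9 windows.
Otx2: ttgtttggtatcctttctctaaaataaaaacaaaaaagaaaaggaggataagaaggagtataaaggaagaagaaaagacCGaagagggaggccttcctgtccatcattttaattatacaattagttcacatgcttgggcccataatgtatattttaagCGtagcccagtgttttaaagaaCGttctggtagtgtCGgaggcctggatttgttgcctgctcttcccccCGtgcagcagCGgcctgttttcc
Sox1: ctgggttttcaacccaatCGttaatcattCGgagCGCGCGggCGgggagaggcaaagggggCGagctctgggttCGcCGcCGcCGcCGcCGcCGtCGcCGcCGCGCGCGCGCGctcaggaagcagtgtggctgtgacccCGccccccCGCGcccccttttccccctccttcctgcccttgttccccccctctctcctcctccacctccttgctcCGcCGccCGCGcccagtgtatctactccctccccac
Pax6: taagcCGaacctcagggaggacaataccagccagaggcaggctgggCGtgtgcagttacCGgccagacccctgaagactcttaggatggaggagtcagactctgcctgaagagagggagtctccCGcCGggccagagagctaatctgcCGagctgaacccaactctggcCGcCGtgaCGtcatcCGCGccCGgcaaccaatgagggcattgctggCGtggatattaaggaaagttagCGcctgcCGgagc
Olig2: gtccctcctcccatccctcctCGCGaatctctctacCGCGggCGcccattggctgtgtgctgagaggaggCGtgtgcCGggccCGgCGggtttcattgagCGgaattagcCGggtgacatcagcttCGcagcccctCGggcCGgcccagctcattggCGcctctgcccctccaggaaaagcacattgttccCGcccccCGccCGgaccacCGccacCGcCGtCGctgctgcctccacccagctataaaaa
The Sox1 promoter held 29 CG, the Olig2 promoter 22, the Pax6 promoter 15 and the Otx2 promoter 6. Over the 32851 promoters of this length in the table the median was 6, and 92.1% held at least 1. At least as many CG as Sox1 were found in 6.78% of promoters, as Olig2 in 14.8%, as Pax6 in 27.3% and as Otx2 in 50.4%. The 3 other Otx2 starts, spread with the first over 4.91 kb, had 8, 14 and 9, and the second Pax6 start, 13.6 kb from the first, had 15. So the outermost Otx2 promoter, at the locus with the longest H3K4me3 islands, was no denser in CG than the median.

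All 4 loci were bivalent in WT and in KO, and no locus lost either mark. Each of the 8 WT H3K4me3 islands overlapped H3K27me3, as did each of the 13 KO islands. Over the whole lists 10.8% of WT and 6.78% of KO H3K4me3 islands overlapped H3K27me3 by 1 bp or more. When the overlap had to reach 50% of the smaller island, all 8 remained in WT and 8 of 13 in KO. In KO 1 of 4 remained at Sox1 and 3 of 5 at Otx2. The share of the whole lists at that limit was not computed. Of these 8 WT islands, 7 met both marks again in KO, against 60.1% of bivalent islands in the whole WT list. The exception was a weak Pax6 island described below. Taken from the other mark, 7 of 12 WT H3K27me3 islands and 8 of 14 KO islands overlapped H3K4me3, where the lists gave 37.4% and 41.9%. An H3K27me3 partner in the other genotype was found for 11 of 12 WT and 11 of 14 KO islands (49.6% and 58.5% of the lists), and an H3K4me3 partner for 7 of 8 and 10 of 13 (94.7% and 59.6%). What differed between the libraries was the extent, the strength and the arrangement of each mark.

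**Figure D1:**
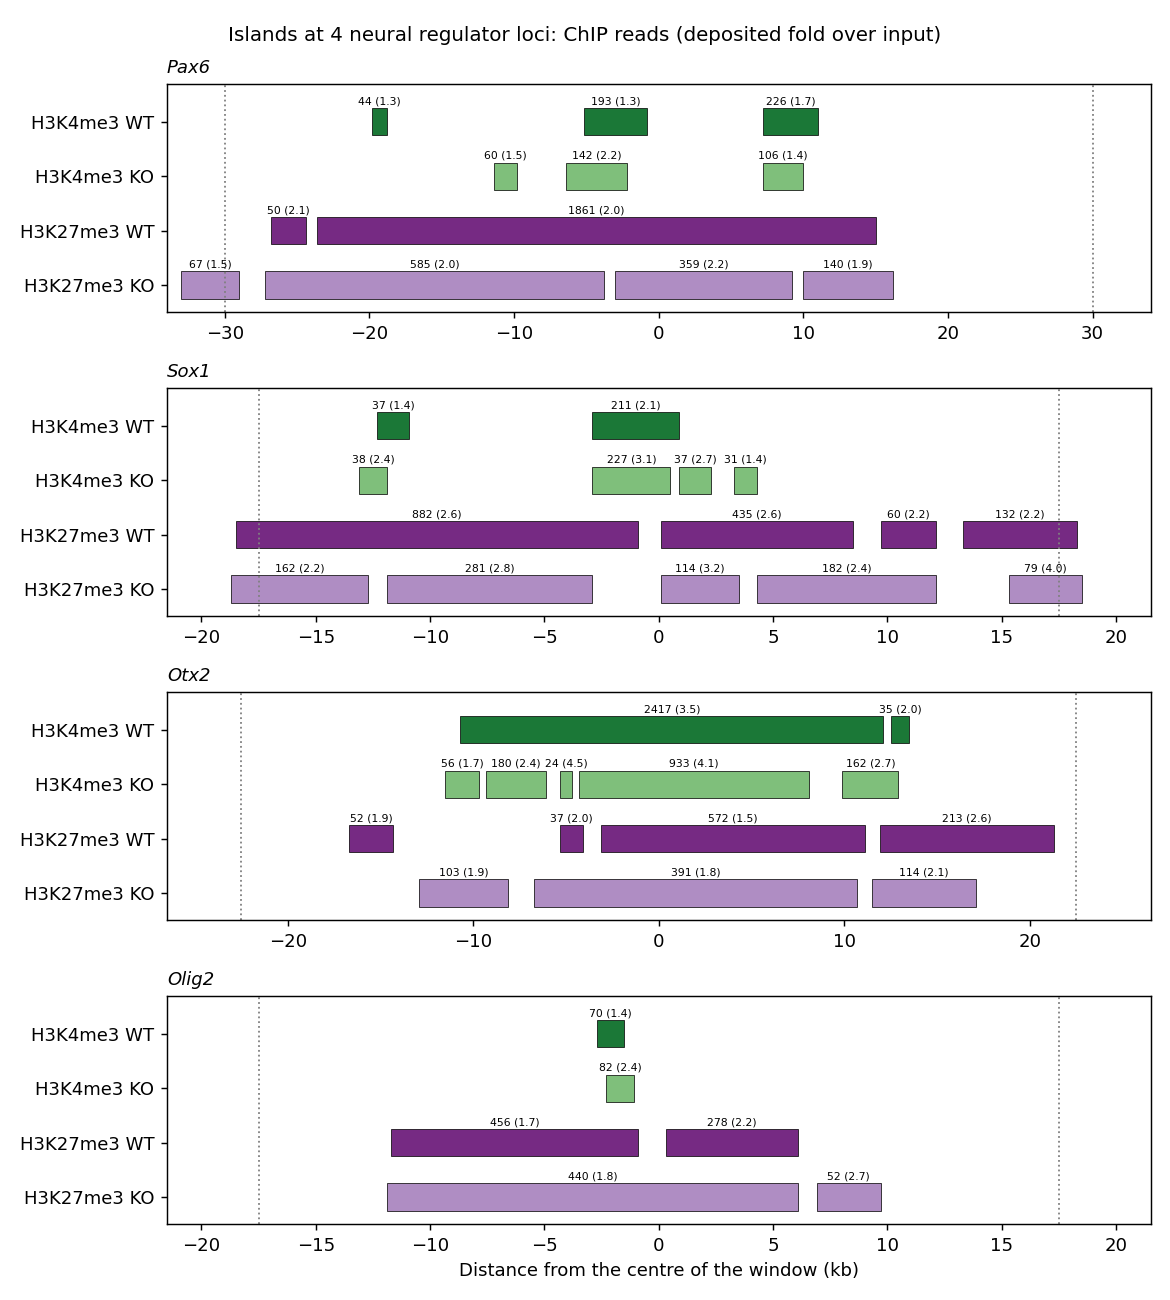
Islands of both marks in WT and KO at the 4 loci, drawn to scale by distance from the centre of each window in kb, with the window's edges dotted. Above each bar stand its ChIP reads, not scaled, and in brackets its deposited fold over input. The single 22.8 kb H3K4me3 island of Otx2 in WT lies where KO has 5 islands, and the H3K27me3 gap at the centre of Sox1 is wider in KO.

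Levels are given on 3 scales. Reads are the deposited ChIP reads inside islands. Scaled reads are the KO over WT read ratio divided by that ratio over all regions of the mark with islands in both genotypes (shared regions), which was 1.31 for H3K4me3 and 0.732 for H3K27me3. Fold over input is ChIP over control reads with the depth constant of each list. Over all shared regions it was 4.19 in WT and 6.38 in KO for H3K4me3, and 2.24 and 1.95 for H3K27me3. A fold that stayed level therefore lagged behind the list for H3K4me3 and led it for H3K27me3. Intervals are 95% and cover read counting alone.

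H3K4me3 at Otx2 was lower in KO. In WT 1 island, at chromosome 14, 49271801 to 49294600, covered 22.8 kb with 2417 reads at 3.54-fold over input, and a second of 1 kb beside it held 35 reads. The larger was the 33rd widest of 28365 WT islands and ranked 99th by reads. In KO the same stretch held 5 islands, of 56, 180, 24, 933 and 162 reads, the largest 12.4 kb long at chromosome 14, 49278201 to 49290600, with a fold of 4.13. Otx2 thus had one of the broad H3K4me3 domains of the WT library, and in KO a shorter core with 4 separate islands around it. Of the 1222 WT H3K4me3 islands of 10 kb or wider, 16.8% overlapped 2 or more KO islands, and 0.0818%, which is the Otx2 island alone, overlapped 5 or more. The gaps between the KO islands were 0.4 to 1.8 kb, and 3 of the 4 were under 1 kb, not far above the 200 bp that the caller joins, so the number of pieces rests on short stretches.

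Summed over the locus, H3K4me3 reads at Otx2 were 2452 in WT and 1355 in KO, although the KO library held more reads in shared regions. The scaled ratio was 0.420 (0.393 to 0.449), over called lengths of 23.8 and 21 kb. Per kb of island the reads were 103.0 in WT and 64.5 in KO, so the difference was also present per length. Among the 2441 shared H3K4me3 regions with a read level of 1000 or more, counted as the mean of WT and scaled KO reads, 0.983% were lower in KO by over 1.5-fold. The Otx2 region had the lowest log2 scaled ratio of them, at −1.25, and the next was −1.05, against a median of −0.03. Among the 15011 shared regions that held at least 100 reads in both libraries, it was the 33rd lowest.

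By fold over input the Otx2 difference was smaller. It stood at 3.50 in WT against 3.40 in KO. Their ratio was 0.973 (0.825 to 1.15), an interval that includes 1. The fold rose 1.52-fold over all shared regions, and relative to it Otx2 stood at 0.639. Of the 2441 large regions, 58 had a lower fold ratio than Otx2 (2.38%). Input per kb at the locus was 16.6 in WT and 14.1 in KO. That is 0.851 times, where shared regions gave 0.933.

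**Figure D2:**
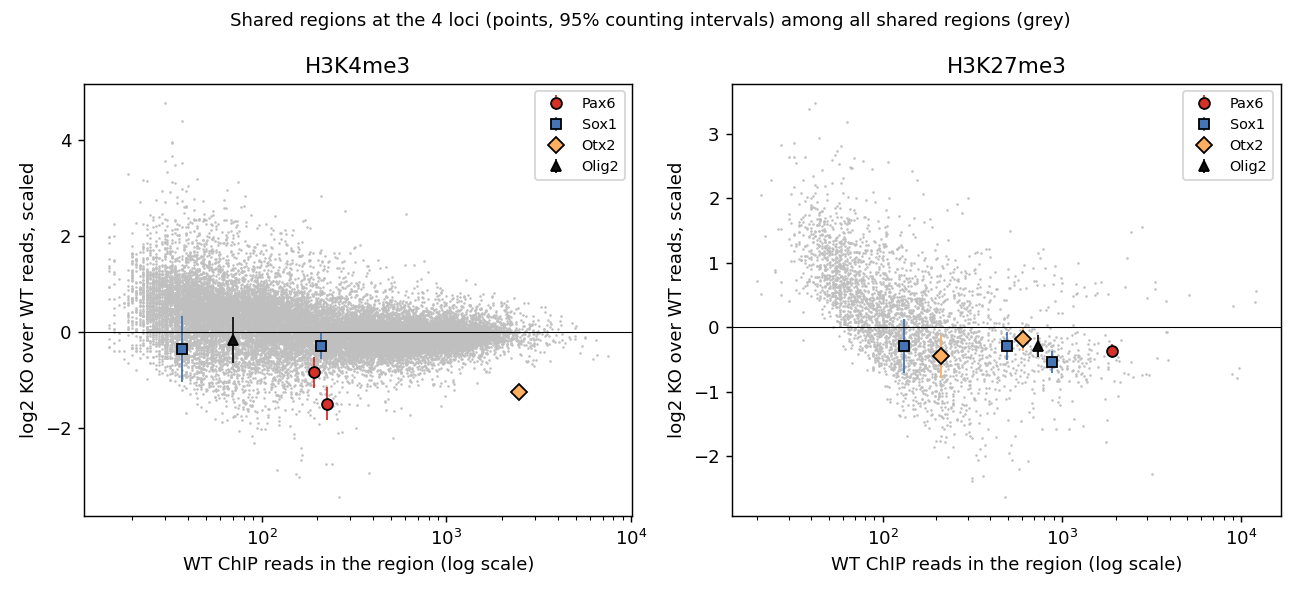
Log2 KO over WT scaled reads of each shared region against its WT ChIP reads (log axis), for H3K4me3 and H3K27me3. Grey points are all shared regions, coloured points those at the 4 loci, with 95% counting intervals. The Otx2 region stands at −1.25 below the other H3K4me3 regions of its read level, while the H3K27me3 regions of the 4 genes lie at −0.54 to −0.19, within the spread of the grey points.

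H3K27me3 at Otx2 differed little in summed scaled reads, and each library had an island without a partner. Its reads were 874 in WT and 608 in KO, a scaled ratio of 0.951 (0.856 to 1.06), with folds of 1.76 and 1.87. These sums include the islands called in a single library. The shared regions had scaled ratios of 0.877 (0.771 to 0.998) and 0.731 (0.577 to 0.922), with fold ratios of 1.16 and 0.792. The central island ran for 14.2 kb in WT (572 reads, 1.54-fold) and 17.4 kb in KO (391 reads, 1.82-fold). On one side WT had an island of 2.4 kb and 52 reads with no KO partner, at 49265801 to 49268200. KO had one of 4.8 kb and 103 reads with no WT partner, at 49269601 to 49274400, nearer to the centre. That KO island lies in part over a stretch that in WT carried H3K4me3 without H3K27me3. The length under both marks was 16.6 kb in WT and 18.8 kb in KO, and the share of H3K4me3 length that also carried H3K27me3 was 69.7% and 89.5%. Of the 4 loci Otx2 was the one where H3K4me3 covered most of the H3K27me3 length, 61.0% in WT and 67.6% in KO, against 5.77 to 22.4% at the other 3.

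At Sox1 H3K4me3 was present in both libraries, and H3K27me3 covered less of the main H3K4me3 island in the KO list. That island lay at chromosome 8, 12394601 to 12398400, in WT, with 211 reads at 2.12-fold, and at 12394601 to 12398000 in KO, with 227 reads at 3.12-fold. Its scaled ratio was 0.818 (0.675 to 0.992). Fold over input was 1.48 times as high in KO, close to the 1.52 of all shared regions. The fold was thus higher in KO taken alone, but not relative to the list, and scaled reads were lower.

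Of that 3.8 kb WT interval, H3K27me3 covered 73.7% in WT and 21.1% in KO. In WT 2 islands, of 17.6 and 8.4 kb, reached over both flanks of it and left a gap of 1 kb. In KO the gap was 3 kb, from 12394601 to 12397600, and its lower end coincides with the first base of the H3K4me3 island. The bivalent overlap at the main island was 2800 bp in WT and 400 bp in KO. Among islands bivalent in WT that met both marks again in KO, 15.3% had under 50% of their WT H3K27me3 coverage left, and the Sox1 island was the 1 of the 7 at these loci that did.

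Smaller H3K4me3 islands lay on both sides of the main one. Both libraries had a minor H3K4me3 island before the main one, at a distance of 8 kb in WT and 9 kb in KO, with 37 reads in WT (1.39-fold) and 38 in KO (2.35-fold). KO had 2 more after it that were not called in WT, at 12398401 to 12399800 with 37 reads and 2.75-fold, and at 12400801 to 12401800 with 31 reads and 1.36-fold, the second at a deposited FDR of 0.043. The first lay wholly under H3K27me3. Genome-wide 59.6% of KO H3K4me3 islands had a WT partner, so an island found in the KO list alone is common. Summed over the Sox1 locus, H3K4me3 reads were 248 and 333, a scaled ratio of 1.02 (0.864 to 1.21), with folds of 1.96 and 2.66. That sum takes in the islands called in KO alone, for which no WT reads were counted. The 2 shared regions had scaled ratios of 0.781 (0.484 to 1.26) and 0.818 (0.675 to 0.992). The length under both marks was 4.2 kb in WT and 2.4 kb in KO, and just 0.4 kb was bivalent in both.

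Sox1 had the highest H3K27me3 fold of the 4 loci, 2.56 in WT and 2.68 in KO. Its 4 WT islands held 1509 reads over 33.4 kb and its 5 KO islands 818 over 29.4 kb. The scaled ratio was 0.741 (0.679 to 0.807), the lowest of the 4 for this mark, yet the fold ratio was 1.05 (0.877 to 1.25). The 17.6 kb WT island, with 882 reads, was 2 islands of 162 and 281 reads in KO. Scaled reads were therefore lower in KO, while the interval of the fold ratio included 1. Relative to all shared regions the fold ratio was 1.20, so the amount of the mark depended on the scale. The widened gap is a property of where islands were called.

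At Pax6 H3K27me3 was broad and H3K4me3 weak. One WT H3K27me3 island spanned 38.6 kb, chromosome 2, 105496401 to 105535000, with 1861 reads at 2.04-fold, and was the 30th widest of 8067. Beside it was one of 2.4 kb with 50 reads. In KO the same stretch held 3 islands, of 23.4, 12.2 and 6.2 kb with 585, 359 and 140 reads, separated by 0.8 kb each, and 1 more of 4 kb and 67 reads crossed the edge of the window. Such splitting was usual: of 58 WT H3K27me3 islands of 30 kb or wider, 46.6% overlapped 3 or more KO islands. Summed reads were 1911 and 1151, a scaled ratio of 0.823 (0.764 to 0.886), and folds were 2.04 and 2.02. The KO sum includes the 67-read island, which had no WT partner. The shared region alone had a scaled ratio of 0.775 (0.719 to 0.835) and a fold ratio of 1.01.

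Most H3K4me3 of Pax6 lay in 2 clusters, each of 1 island per genotype. In WT both lay wholly under H3K27me3. In KO H3K27me3 covered 81.0% of the first and 71.4% of the second, as the 0.8 kb gaps between H3K27me3 islands fell on them. Those gaps were not far above the 600 bp that the caller joins. The first was at 105514801 to 105519200 in WT (193 reads, 1.32-fold) and 105513601 to 105517800 in KO (142 reads, 2.15-fold). The second was at 105527201 to 105531000 in WT (226 reads, 1.69-fold) and 105527201 to 105530000 in KO (106 reads, 1.41-fold). Their starts were 12.4 kb apart in WT and 13.6 kb in KO, and the 2 RefSeq starts of Pax6 are 13.6 kb apart in their own build. A weaker WT island started 14.6 kb before the first cluster, so this spacing is not unique to the 2 clusters, and neither was assigned to a promoter.

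Both clusters had fewer scaled reads in KO, and the second also fell behind by fold. The scaled ratio of the first was 0.560 (0.447 to 0.699), but its fold was 1.63 times as high in KO, with 82 input reads in WT and 49 in KO. The second had a scaled ratio of 0.357 (0.281 to 0.451), the 17th lowest of the 15011 shared regions that held at least 100 reads in both libraries. In that set 4.51% of regions were lower in KO by over 1.5-fold. Its fold ratio was 0.831, and 1.64% of those regions had a lower one. Over the locus, H3K4me3 reads were 463 and 308, a scaled ratio of 0.506 (0.437 to 0.586). The locus fold was 1.48 for WT and 1.70 for KO. The ratio of these folds was 1.15 (0.878 to 1.497), an interval that includes 1. Relative to the 1.52-fold rise over all shared regions, Pax6 stood at 0.753, below 1 like its scaled reads.

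Other H3K4me3 calls at Pax6 were each found in 1 library. WT had an island of 1 kb, 105500201 to 105501200, with 44 reads, 1.30-fold and a deposited FDR of 0.045, next to the 0.05 limit. KO had one of 1.6 kb, 105508601 to 105510200, with 60 reads and 1.49-fold. Both lay wholly under H3K27me3. At these folds an island stood barely above its input, and the absence of a partner is not a count of 0. The length under both marks was 9.2 kb in WT and 7 kb in KO, of which 4.2 kb coincided.

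Olig2 had the shortest H3K4me3 of the 4 loci, and its difference between libraries lay within counting error. Its single H3K4me3 island was 1.2 kb long in both lists, at chromosome 16, 91224801 to 91226000, in WT and 91225201 to 91226400 in KO. It held 70 reads at 1.41-fold in WT and 82 reads at 2.44-fold in KO. Scaled reads gave a ratio of 0.891 (0.640 to 1.24) and fold one of 1.73 (0.927 to 3.25), and both intervals include 1. With so few reads, differences within these intervals were not detectable. The island lay wholly under H3K27me3 in each genotype.

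H3K27me3 at Olig2 was 2 islands in WT, of 10.8 kb with 456 reads and 5.8 kb with 278 reads. In KO it was 1 island of 18 kb with 440 reads, at 91215601 to 91233600, and a further 2.8 kb island of 52 reads, 2.66-fold, without a WT partner. The 18 kb KO island spans both WT islands and the gap of 1.2 kb between them. Summed reads were 734 and 492, a scaled ratio of 0.916 (0.815 to 1.03), and folds were 1.90 and 1.86. The sum includes the KO island without a WT partner. The shared region alone had a scaled ratio of 0.819 (0.726 to 0.923) and a fold ratio of 0.942.

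**Figure D3:**
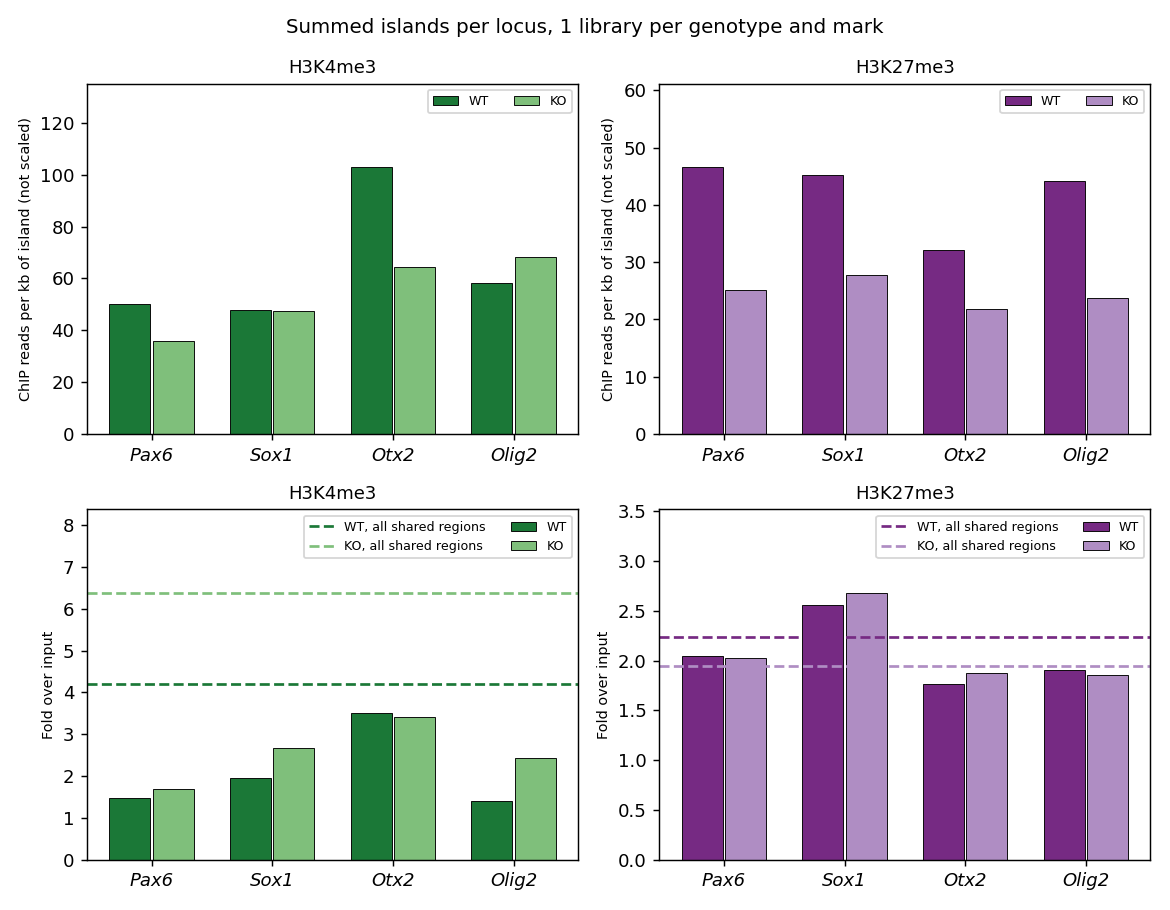
ChIP reads per kb of island, not scaled for depth (top), and fold over input (bottom) of the summed islands at each locus, for H3K4me3 (left) and H3K27me3 (right). Dashed lines give the pooled fold of all shared regions. All 4 loci lie below the H3K4me3 lines in both genotypes, and Otx2 is the one locus where the H3K4me3 fold was not higher in KO.

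Side by side, all 4 loci lay below the pooled H3K4me3 fold of shared regions in both genotypes, and on either side of that of H3K27me3. The locus fold of H3K4me3 ran from 1.41 at Olig2 through 1.48 at Pax6 and 1.96 at Sox1 to 3.50 at Otx2 in WT. In KO it ran from 1.70 at Pax6 through 2.44 at Olig2 and 2.66 at Sox1 to 3.40 at Otx2. Just 1 of 8 WT islands and 2 of 13 KO islands exceeded the median fold of their lists, 2.98 and 3.58, and all 3 were at Otx2. For H3K27me3, 0 of 12 WT and 5 of 14 KO islands exceeded the medians of 2.77 and 2.22. Input was dense there, with 6 of 8 WT and 9 of 13 KO H3K4me3 islands above the median input per kb of their list, and 11 of 12 and 12 of 14 H3K27me3 islands. Its part in the low folds was not tested.

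Counted by region, 3 of the 6 shared H3K4me3 regions at these loci were lower in KO by over 1.5-fold in scaled reads, 1 at Otx2 and 2 at Pax6, and 0 were higher. Among all 23385 shared regions 5.93% were lower and 16.2% higher. The median log2 scaled ratio of the 6 was −0.60, against 0.04 over all. By fold over input 2 of the 6 were lower in KO, at Otx2 and the second Pax6 cluster, where 8.57% of all shared regions were.

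For H3K27me3 none of the 7 shared regions passed 1.5-fold in scaled reads in either direction, where 16.2% of all shared regions were lower and 27.4% higher. Scaled reads were lower in KO in all 7, with log2 ratios from −0.54 to −0.19 and a median of −0.29. Over all 3379 shared H3K27me3 regions 45.7% were lower, with a median of 0.08, and over the 1424 that held at least 100 reads in both libraries 52.7% were, with a median of −0.05. The share rose with read level: at 500 or more the median was −0.36, and 72.5% of these 327 regions were lower. Of the 7, 4 reached that level, 1 at each locus, with log2 ratios of −0.37 at Pax6, −0.54 at Sox1, −0.19 at Otx2 and −0.29 at Olig2. The other 3, at Sox1 and Otx2, did not, and had −0.29, −0.29 and −0.45. By fold 3 of the 7 were lower in KO, where 64.1% of all were, and the 4 locus fold ratios ran from 0.976 to 1.06. The direction of the H3K27me3 difference at these loci thus depended on the scale. The input per kb of the 4 loci was 0.889 to 1.04 times as high in KO, whereas over all shared H3K27me3 regions it was 1.33 times as high. Fold relative to the list takes in that difference.

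**Figure D4:**
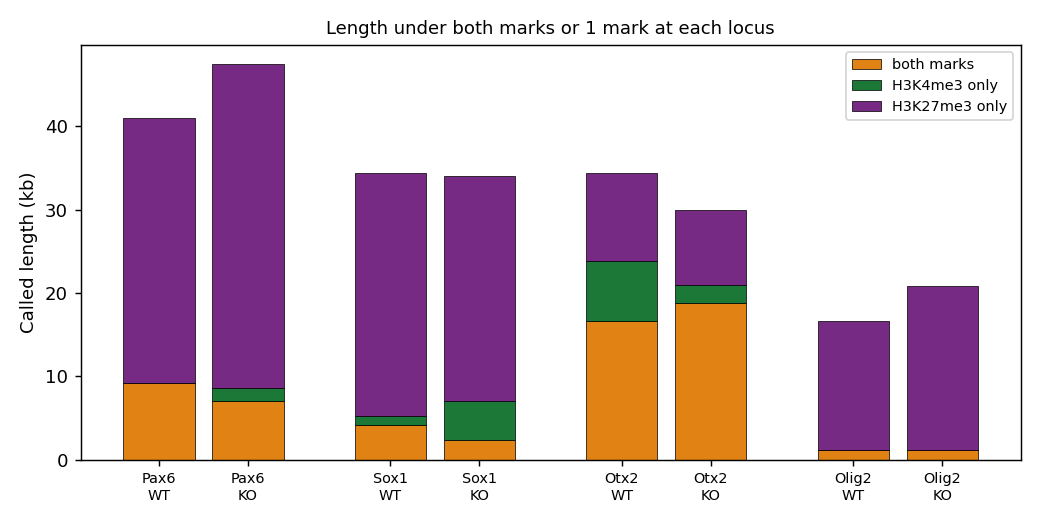
Called length in kb under both marks, H3K4me3 alone and H3K27me3 alone at each locus in WT and KO. Length under both marks was 9.2 and 7 kb at Pax6, 4.2 and 2.4 kb at Sox1, 16.6 and 18.8 kb at Otx2, and 1.2 kb in each at Olig2.

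In total the length under both marks was 31.2 kb in WT and 29.4 kb in KO. It was shorter in KO at Pax6 and Sox1, longer at Otx2 and equal at Olig2. The part bivalent in both genotypes was 4.2 kb at Pax6, 0.4 kb at Sox1, 13.4 kb at Otx2 and 0.8 kb at Olig2. How firmly a locus was bivalent varied with the limit set on islands. With a fold of 2 or more required, Sox1 and Otx2 were bivalent in WT, and Pax6, Sox1 and Otx2 in KO. With an FDR of 1e-05 or lower, Pax6, Sox1 and Otx2 were bivalent in WT and all 4 in KO. Sox1 and Otx2 were the 2 loci that were bivalent in both genotypes under each limit tried. At Otx2 a fold of 2 left out the central H3K27me3 islands, at 1.54-fold in WT and 1.82-fold in KO. There 1 bivalent H3K4me3 island remained in each genotype, over smaller H3K27me3 islands.

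Other genes overlap these genes or lie next to them. In the RefSeq gene table of GRCm38, used for names alone, Pax6 overlaps the lncRNA Pax6os1 and the protein-coding gene Elp4, Sox1 overlaps the lncRNA Sox1ot, and Olig2 overlaps the lncRNA Gm52261. The lncRNA Otx2os1 is the next gene after Otx2 and Olig1 the next after Olig2. None of these other genes was placed on the mm9 windows. Whether an island within a window marks a start of one of them was not tested.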

How the data were processed

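Of 10 samples the 4 ChIP libraries were used. The micrococcal nuclease samples were not analysed here, and input enters as the control reads of each island. The title of the KO H3K27me3 library names H2K27me3, and its antibody label H3K27me3. Per the submitters' processing notes the tools were Bowtie, without a version, and SICER 1.1 on mm9. The names of the lists give the window as 200 bp and the FDR as 0.05, with a gap of 200 bp in the H3K4me3 calls and 600 bp in the H3K27me3 calls. How reads were filtered is not given in the sources used here. The deposited ChIP and control counts per island are not scaled. The deposited fold is a ratio of these counts times 1 constant per list. The deposited FDR was used as the limit of each list, as a stricter alternative limit of 1e-05, and to describe single islands. The deposited p-values were not used further. Chromosome positions are 1-based.

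Per mark, overlapping islands of WT and KO were joined into regions, 23385 of them shared for H3K4me3 and 3379 for H3K27me3. Reads were summed over whole islands, also where they cross a window's edge. Where an island had no partner, no reads of the other library entered the sum. Intervals are exact conditional binomial for read ratios and normal on the log scale for fold ratios. A region was called higher or lower past 1.5-fold. Every island at the 4 loci was accounted for. The named genes and the windows were chosen with earlier results of these data known. Depth is known only as reads in islands: 9565481 and 13512350 for H3K4me3 and 1140878 and 839422 for H3K27me3, WT and KO. PCR duplicates are not independent molecules, so intervals cover counting error only.

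Promoter sequences of 4 of 4 genes came from the RefSeq table. Read ratios were run on simulated counts that held counting error alone. That run therefore checks the calculation and not spread between libraries, duplicates or island calling. Overlap counts differed from bedtools 2.31.1 by 0 islands. Python 3.11.15, numpy 2.4.6, pandas 2.3.3, scipy 1.17.1 and matplotlib 3.10.9 were used.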

Additional observations from a re-analysis of the deposited data

How the results depend on the processing

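With 1 library per genotype and mark, none of these values has a replicate check, and the causes of the moves below were not tested unless a setting by its construction shortens a list. No paired analysis was possible because each ChIP group has 1 library and no test was made. Of 97 alternative values, 61 stayed within the interval or within 1.5 times the count, 32 moved and 4 reversed. Fold relative to all shared regions was chosen after the data were seen, and the other settings were planned. All ratios here are KO over WT.

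By fold over input, H3K4me3 reversed at Pax6 (1.15) and moved at Sox1 (1.36), Otx2 (0.973) and Olig2 (1.73), and H3K27me3 reversed at Sox1 (1.05) and moved at Pax6 (0.991) and Otx2 (1.06). Relative to the fold of all shared regions, H3K4me3 was 0.753 at Pax6 and 0.639 at Otx2. On that scale H3K27me3 reversed at Pax6 (1.14) and Sox1 (1.20) and moved at Otx2 (1.22) and Olig2 (1.12). Each of these H3K27me3 ratios changed from below 1 to above 1. Without scaling, H3K4me3 was 0.665 at Pax6, 1.34 at Sox1 and 0.553 at Otx2, and H3K27me3 was 0.602 at Pax6, 0.542 at Sox1, 0.696 at Otx2 and 0.670 at Olig2. As reads per kb of island, divided by the same ratio of reads per kb over all shared regions, H3K4me3 was 0.662 at Pax6 and 0.583 at Otx2, and H3K27me3 was 0.759 at Pax6, 0.867 at Sox1 and 0.753 at Olig2. The H3K4me3 ratio at Otx2 was below 1 under each setting run.

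Islands of a fold of 2 or more gave H3K27me3 ratios of 0.871 at Sox1, 0.733 at Otx2 and 0.301 at Olig2. At Olig2 the islands left, of 278 reads in WT and 52 in KO, did not overlap, so 0.301 compares different places. At Otx2 the central island was left out in both genotypes. That limit left 2 H3K4me3 islands in WT, both bivalent, and 5 bivalent in KO. It also left 9 H3K27me3 islands in KO and 2 bivalent loci in WT. No H3K4me3 ratio could be had at Pax6 or Olig2 there, since WT had no such island, and an FDR of 1e-05 likewise gave none at Olig2. That FDR left 3 H3K4me3 islands in WT, all 3 bivalent. An overlap of 50% of the smaller island gave 8 bivalent islands in KO. The bivalent share of the whole lists was not computed at any of these limits, so these counts have no background.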

Other observations

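Some islands lay within 20 kb outside the windows and so belong to none of the sums above. Beyond the Otx2 window, H3K4me3 at chromosome 14, 49314401 to 49315800, held 39 reads at 1.83-fold in WT, and at 49314601 to 49317000 it held 143 reads at 4.43-fold in KO, the opposite direction to the reads inside the window. No H3K27me3 island overlapped it in either genotype, the next ones being 178 reads over 5.8 kb in WT and 53 reads over 2.6 kb in KO, starting at 49323401 and 49323201.

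Beyond the Olig2 window, on the side of Olig1, 2 H3K4me3 islands were called in both genotypes. The first, 91248601 to 91249400, had identical ends in both lists and held 49 reads at 3.44-fold in WT and 52 at 3.22-fold in KO. The second held 152 reads at 1.99-fold over 3.6 kb in WT and 183 at 4.25-fold over 2.4 kb in KO. Neither had an H3K27me3 island, in contrast to the island inside the window, which lay wholly under that mark. On the other side KO had an H3K4me3 island of 56 reads at 2.31-fold that had no WT partner.

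Around Sox1 the H3K27me3 calls went on past the window. Islands of 215 and 74 reads in WT and 144 and 95 reads in KO lay beyond its upper edge, at folds of 1.34 and 1.84 in WT and 1.35 and 1.97 in KO, and KO had a further island of 48 reads at 3.89-fold before its lower edge.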
